A study of Sus scrofa with 3 samples.

Results

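Visceral adipose tissue of castrated male pigs (CM) was compared with that of intact male pigs (IM), gene by gene, in 1 RNA-Seq library per group. Of 34570 genes listed in the deposited values, 22826 were of the type mRNA, and 14123 of these reached at least 1 UQRPKM in both libraries and were compared. UQRPKM is a read count per kilobase of gene, divided by the upper quartile of its library to make libraries comparable. A further 582 mRNA genes reached 1 UQRPKM in IM but not in CM and 647 in CM but not in IM, and these were not compared. The groups were Chinese Wuzhishan miniature pigs, all male, aged 6 to 7 months when obtained, and all ate feed rich in fat and cholesterol for 12 weeks, so no group was on a normal diet over that time. IM pigs had sham surgery of the skin only, CM pigs had their testes removed, and a further group, CMT, was castrated and injected each week with testosterone propionate at 10 mg/kg in corn oil. The CMT library is set beside IM and CM as values, and numbers of reads are given in the order IM, CM, CMT. The fat was retroperitoneal. RNA of the pigs of a group was mixed in equal amounts before sequencing (4 pigs in the methods of the study, 4 to 6 in the sample labels). No replicate exists, so a difference between IM and CM could not be tested against the spread between pigs, and the libraries cannot be told apart from the condition. In such bulk tissue, fewer cells of a type and less RNA per cell cannot be told apart either.

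Removal of the testes takes away the main source of testosterone in the male. Visceral fat is made of adipocytes, which store triglyceride and secrete leptin and adiponectin, held in a matrix of collagens and proteoglycans with vessels, fibroblasts, macrophages and lymphocytes, and covered in places by mesothelium. The liver makes most proteins of the blood plasma, such as albumin, and fat expresses only some of them. The genes were therefore described in lists: liver genes apart from plasma proteins that fat also makes, and then adipocyte, immune, matrix, vessel and other genes.

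A gene was said to have risen or fallen in CM when the UQRPKM values differed by 1.5-fold or more, which is 0.58 on the log2 scale of the ratio of CM to IM. By this rule 1184 genes rose (8.38%) and 1473 fell (10.4%), together 2657 genes or 18.8% of those compared. The median log2 ratio of all compared genes was -0.062. When reads were scaled by the total of mRNA reads in place of the upper quartile, all log2 ratios moved up by 0.059, and 1348 genes rose and 1282 fell, so that the excess of falls depended on the scaling. Among the genes named below, CEBPB, NID1, SMOC1, TNC, IFITM3, OSR1, SMTN, CNN1 and 1 entry of NOTCH3 passed 1.5-fold with the upper quartile and missed it with total reads. CXCL9, CXCL10 and ASPN did the opposite. Of all compared genes, 56.8% had a log2 ratio below 0. For 1656 of the called genes (11.7% of those compared) the exact 95% counting interval of the ratio lay off 0. This interval comes from recovered read numbers and covers counting error only.

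Genes with few reads passed 1.5-fold more often. The IM library held 14844063 recovered reads of mRNA genes, the CM library 13582288 and the CMT library 13449107. Among 1040 genes with under 20 reads over IM and CM, 54.6% were past 1.5-fold, against 48.6% of 1214 genes with 20 to 49 reads and 30.7% of 2820 genes with 50 to 199 reads. Only 9.83% of 4640 genes with 200 to 999 reads and 3.99% of 4409 genes with 1000 or more passed it. The median was 61 reads for a called gene and 596 for a gene that was not called. Of the 9049 genes with 200 reads or more, 239 rose (2.64%) and 393 fell (4.34%), and with total reads as the scale 311 rose (3.44%) and 290 fell (3.20%).

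**Figure D1:**
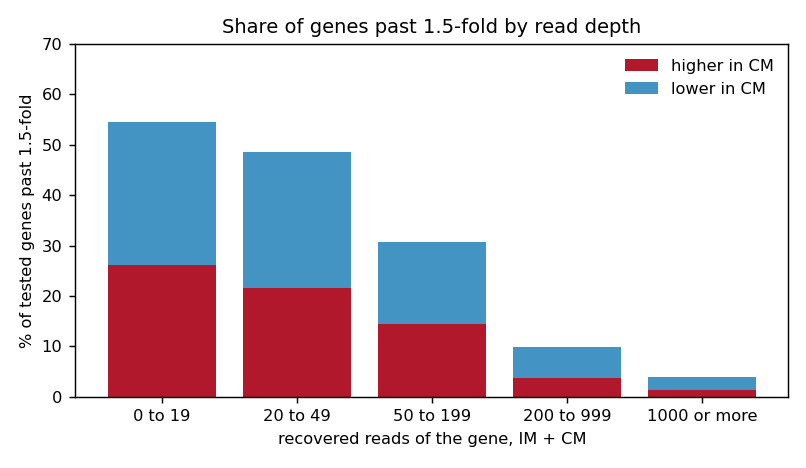
Share of compared mRNA genes (%, vertical axis) that differed by 1.5-fold or more between CM and IM, by the number of recovered reads of the gene over both libraries (horizontal axis). Bars stack genes higher and lower in CM. The share fell from 54.6% under 20 reads to 3.99% at 1000 reads or more.

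The tissue label was held against the markers of fat. ADIPOQ, which encodes adiponectin, had 74928 UQRPKM in IM against 69193 in CM and 63873 in CMT, and PLIN1, the coat protein of the lipid droplet, had 18396 UQRPKM in IM against 18587 in CM and 12504 in CMT. Of 35 adipocyte entries found, 30 reached 1 UQRPKM in both libraries. The list took 3.43% of mRNA reads in IM and 3.45% in CM. Both libraries thus carried a fat profile of like strength, and CMT lay at 2.83%. FABP4 was not among the entries found, and RETN and CIDEA were listed at 0 in every library. Such zeros also stood for genes of wide use, such as SREBF2, so a gene listed at 0 throughout was not read as absent.

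Genes of the liver stood out in the CM library. ALB, which encodes serum albumin, had 2.61 UQRPKM in IM against 2910.1 in CM and 4 in CMT. Its reads numbered 10, 10612 and 15. TF, the iron carrier transferrin, had 5.25 UQRPKM in IM against 781 in CM and 8.74 in CMT. TTR, the carrier of thyroid hormone and retinol-binding protein, had 5.76 UQRPKM in IM against 640.2 in CM and 4.7 in CMT. CM was far above both other libraries for each of these genes, while IM and CMT stayed within 10 UQRPKM. On the log2 scale the ratio of CM to IM was 10.12 (95% counting interval 9.24 to 11.18) for ALB, 7.22 (95% counting interval 6.57 to 7.95) for TF and 6.80 (95% counting interval 5.57 to 8.43) for TTR.

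Other secreted liver proteins had few or no reads outside CM. APOC3, an inhibitor of triglyceride clearance on lipoproteins, had 0, 1418 and 2 reads, and SERPINA1, the elastase inhibitor alpha-1-antitrypsin, had 0, 487 and 0 reads. Against a floor of 3 reads for a library without reads, the CM value of APOC3 was at least 496-fold higher than the IM value, and that of SERPINA1 at least 170.3-fold. HPX, the haem scavenger hemopexin, had 1, 1634 and 0 reads. FETUIN had 5, 993 and 3 reads with a log2 ratio of 7.70, FGA, a fibrinogen chain, had 7, 726 and 0 reads with 6.77, SERPINA3-3 had 2, 358 and 0 reads with 7.55, and APOC2, the activator of lipoprotein lipase, had 2, 281 and 0 reads with 7.20. All of these had under 10 reads in IM and in CMT.

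In the list of liver plasma proteins, 31 of 64 entries reached 1 UQRPKM in both libraries. Of these, 26 rose (83.9%, against 8.38% of all genes) and 1 fell (3.23%, against 10.4%). The median log2 ratio was 3.24, against -0.062 over all genes. With entries at 0 in 1 library set to their bound the median was 3.81 over 57 entries. Of the 16 entries with 200 reads or more, 12 rose (75%, against 2.64% of all such genes) and 1 fell (6.25%, against 4.34%). Of enzymes and transporters of the hepatocyte, 28 of 56 entries were compared, with a median log2 ratio of 1.18. Of the 28, 20 rose (71.4%, against 8.38% of all genes) and 6 fell (21.4%, against 10.4%). The rises were mostly on fewer reads. With 200 reads or more, 2 of 7 rose (28.6%, against 2.64% of all such genes) and 3 fell (42.9%, against 4.34%). CYP2E1, a cytochrome P450 that oxidises ethanol, had 0, 320 and 0 reads, CYP2D25, a cytochrome P450 of the CYP2D family, had 5, 282 and 10 reads, and FABP1, the fatty acid carrier of the hepatocyte, had 1, 81 and 0 reads. HPD, of tyrosine breakdown, had 0, 141 and 0 reads, and CPS1, the entry enzyme of the urea cycle, had 0, 111 and 0 reads. All of these were high in CM and at 10 reads or fewer elsewhere.

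Cells of the liver sinusoid gave a weaker picture. Of 10 entries, 7 were compared, 4 rose (57.1%, against 8.38% of all genes) and 0 fell. The median log2 ratio of 0.85 became 0.43 over 8 entries once an entry with under 1 UQRPKM in IM or CM was added. MARCO, a scavenger receptor of macrophages, had 16.8 UQRPKM in IM against 37.9 in CM and 10.7 in CMT, a log2 ratio of 1.17 (95% counting interval 0.62 to 1.75). CD5L, a secreted protein of tissue macrophages, had 19.7 UQRPKM in IM against 46.6 in CM and 23.4 in CMT with 1.25 (95% counting interval 0.85 to 1.65), and VSIG4, a complement receptor of tissue macrophages, had 155 UQRPKM in IM against 279 in CM and 177 in CMT with 0.85 (95% counting interval 0.57 to 1.14). CLEC4G, a lectin of the sinusoid lining, rose on 4 and 17 reads in IM and CM, and CLEC4F was listed at 0 in every library. STAB1 and LYVE1, which fat macrophages and lymph vessels also express, did not pass 1.5-fold, at log2 ratios of -0.46 and -0.18.

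**Figure D2:**
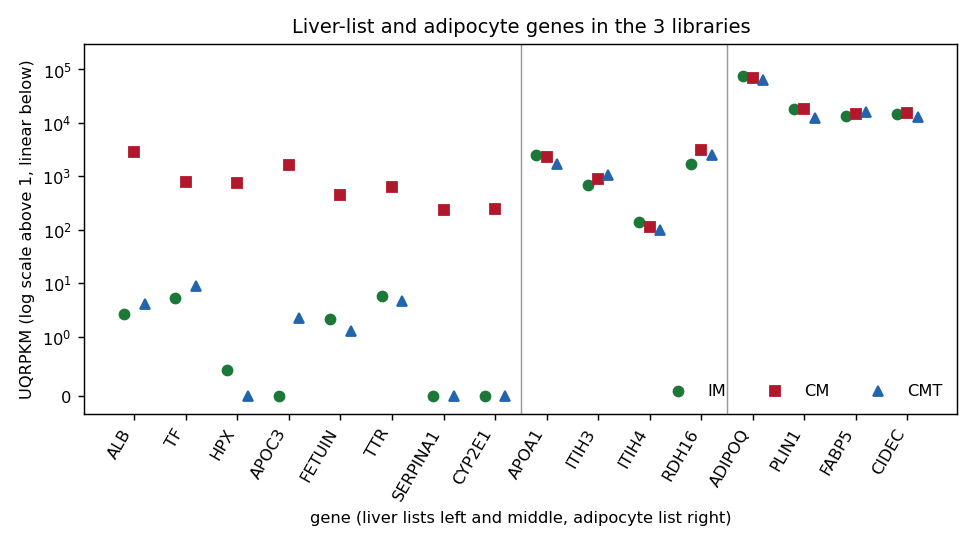
The plot gives UQRPKM (vertical axis, log scale above 1 and linear below) of 16 genes (horizontal axis) in the IM, CM and CMT libraries, 1 symbol per library. The 8 liver-list genes at the left, from ALB to CYP2E1, were below 10 UQRPKM in IM and CMT and above 200 in CM. The 4 liver-list genes in the middle and the 4 adipocyte genes at the right lay close together in all libraries.

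Liver-list genes that were well expressed in CMT rose less often. The 66 compared entries of the 3 liver lists were grouped by their level in CMT, the library outside the ratio. Below 10 UQRPKM in CMT, 37 of 38 entries rose, with a median log2 ratio of 3.70, against 23.5% of the 2446 mRNA genes at that level. From 10 to 100 UQRPKM, 11 of 16 rose (68.8%, against 8.18% of mRNA genes at that level) and 4 fell, with a median of 1.30. At 100 UQRPKM or more, 2 of 12 rose (16.7%, against 2% of mRNA genes) and 2 fell, and the median of -0.061 was near that of all mRNA genes at that level, -0.071.

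Named members show this split. APOA1, the main protein of HDL, had 2539 UQRPKM in IM against 2339 in CM and 1714 in CMT, a log2 ratio of -0.12 (95% counting interval -0.19 to -0.047). ITIH3 and ITIH4 had log2 ratios of 0.32 and -0.29, whereas ITIH1 and ITIH2 of the same family had 4.30 and 5.29. ITIH3 and ITIH4 were already at 701, 877 and 1052 and at 141, 115 and 100.5 UQRPKM in IM, CM and CMT. AKR1C4 and FBP1 gave 0.35 and 0.35, and RDH16, a retinol dehydrogenase, rose from a high level, with 1725 UQRPKM in IM against 3066 in CM and 2489 in CMT. The entries that fell were C9 (LOC100037951) with -0.77, CYP2A19 with -0.68, GYS2 with -0.86, UGT1A3 with -1.04, TTPA with -0.90, and on few reads RGN with -2.31 and AMDHD1 with -1.86. Their CMT values were also below IM for all but CYP2A19.

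Over the 3 liver lists together, IM held 27954 reads, CM 58319 and CMT 29368, which is 0.188%, 0.429% and 0.218% of mRNA reads. With 20 reads or more in CM, 85 mRNA genes (0.372%) exceeded IM and CMT each by 10-fold or more. Their sum was 277 reads for IM, 34059 for CM and 262 for CMT. Of these, 49 were in a liver list, 7 were in another list and 29 in none. Among the 7 were HP, ORM1, CP and LBP, all plasma proteins of the acute phase, GSTA1, a glutathione transferase, and CCL16, a chemokine also known as liver-expressed chemokine. Among the 29 in no list, named after their values were seen, were PROC, MAT1A, BHMT, PZP and FETUB, which are textbook genes of the liver. Without the liver lists and the 10-fold genes, 1127 of 14050 genes rose in CM, against 1184 of 14123 with them. The origin of the liver RNA was not tested.

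**Figure D3:**
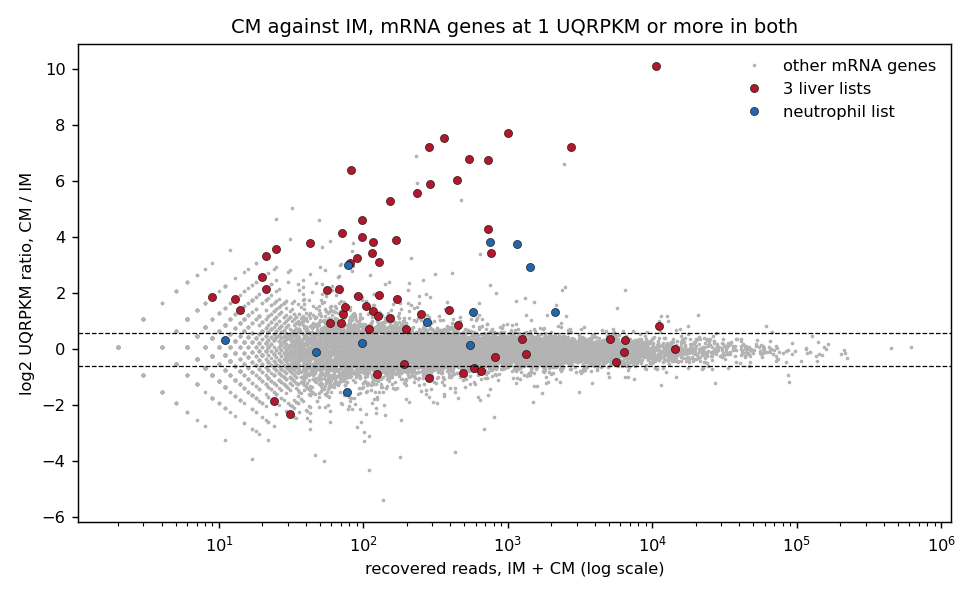
Log2 ratio of CM to IM in UQRPKM (vertical axis) against recovered reads over both libraries (horizontal axis, log scale) for 14123 mRNA genes, 1 dot per gene. Red marks the 3 liver lists and blue the neutrophil list, and dashed lines mark 1.5-fold. ALB lies at the top, and grey genes spread more widely at low read numbers.

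Plasma proteins that fat also makes were read apart from the liver lists. Of 30 entries, 23 were compared, with a median log2 ratio of 0.37. Of the 23, 9 rose (39.1%, against 8.38% of all genes) and 1 fell (4.35%, against 10.4%). With 200 reads or more, 6 of 20 rose (30%, against 2.64% of all such genes) and 1 fell (5%, against 4.34%). APOM and SAA3 (LOC733603) rose on 17 and 27 and on 10 and 21 reads in IM and CM, and their counting intervals held 0. HP, the haemoglobin-binding protein haptoglobin, had 12.6 UQRPKM in IM against 1226 in CM and 16.3 in CMT and a log2 ratio of 6.61 (95% counting interval 6.05 to 7.23), and its CMT value was close to IM, as for ALB. LBP, which hands bacterial lipopolysaccharide to CD14, followed the same order with 6, 79 and 2 reads. ORM1 had 0, 161 and 0 reads and CP, the copper carrier ceruloplasmin, had 0, 127 and 1 reads.

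The complement genes C3 and CFB differed from these in CMT. C3, the central complement component, had 308 UQRPKM in IM against 1322 in CM and 1365 in CMT. CFB, which forms the alternative pathway convertase with C3, had 15.9 UQRPKM in IM against 166 in CM and 102 in CMT. CM and CMT were both well above IM for C3 and for CFB. Their log2 ratios of CM to IM were 2.10 (95% counting interval 2.01 to 2.19) and 3.38 (95% counting interval 3.0 to 3.80). CFD (LOC396877), the convertase activator known as adipsin and a product of adipocytes, had 2457 UQRPKM in IM against 2482 in CM and 2787 in CMT, with all libraries close together. C2, C4 and CFP also stayed within 1.5-fold, at 0.17, 0.25 and 0.18, and CFI, which degrades C3b, rose with 0.75.

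Of the abundant secreted proteins of fat, APOE, a ligand for lipoprotein uptake, had 13949.8 UQRPKM in IM against 24527 in CM and 11363 in CMT, a log2 ratio of 0.81 (95% counting interval 0.79 to 0.84). CM was the highest library for APOE. ANGPTL4, an inhibitor of lipoprotein lipase, fell, with 5109 UQRPKM in IM against 3239 in CM and 3853 in CMT and -0.66 (95% counting interval -0.70 to -0.62). RBP4, AGT and CLU were within 1.5-fold at 0.37, 0.37 and -0.32. APOD (LOC100157318) rose by 0.60 and was highest in CMT, with 338, 513 and 984 UQRPKM in IM, CM and CMT.

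Most adipocyte genes stayed within 1.5-fold. Of the 30 compared, 2 rose and 4 fell, 6.67% and 13.3% of them against 8.38% and 10.4% of all genes, with a median log2 ratio of 0.0086. Nearly all had 200 reads or more, and of these 29, 2 rose and 4 fell. That is 6.9% and 13.8%, against 2.64% and 4.34% of all such genes. LEP, which encodes the satiety hormone leptin, had 167 UQRPKM in IM against 502 in CM and 156 in CMT and a log2 ratio of 1.59 (95% counting interval 1.45 to 1.73). SLC2A4, the insulin-responsive glucose transporter GLUT4, had 161 UQRPKM in IM against 268 in CM and 119.5 in CMT with 0.74 (95% counting interval 0.58 to 0.89). For both genes CM was the highest and CMT the lowest library.

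The 4 adipocyte genes that fell serve lipolysis, glycerol synthesis or gene control. ABHD5, the coactivator of adipose triglyceride lipase, had 976 UQRPKM in IM against 556 in CM and 806 in CMT, a log2 ratio of -0.81 (95% counting interval -0.92 to -0.70). GPR81, a lactate receptor that restrains lipolysis, had 884 UQRPKM in IM against 492 in CM and 854 in CMT with -0.84 (95% counting interval -0.98 to -0.71). PCK1, which serves glycerol synthesis in fat, had 5402 UQRPKM in IM against 3377 in CM and 5326 in CMT with -0.68 (95% counting interval -0.71 to -0.65). CEBPB, a transcription factor of early adipogenesis, had 108 UQRPKM in IM against 69.7 in CM and 59.9 in CMT with -0.64 (95% counting interval -1.0 to -0.27). In ABHD5, GPR81 and PCK1 the CMT value lay between CM and IM, and in CEBPB it lay below CM. The lipases PNPLA2, LIPE and MGLL stayed within 1.5-fold, at -0.47, -0.11 and -0.36. The regulators PPARG and CEBPA gave 0.26 and 0.22.

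In fatty acid synthesis, 1 of 15 compared genes rose and 1 fell, and with 200 reads or more 0 of 14 rose and 1 fell (7.14%), near the shares of all such genes, with a median log2 ratio of -0.054. The fall was ACLY, which makes cytosolic acetyl-CoA, with 6272 UQRPKM in IM against 3879 in CM and 2007 in CMT and -0.69 (95% counting interval -0.73 to -0.66). SCD, the stearoyl-CoA desaturase, had 7188 UQRPKM in IM against 9909 in CM and 3308 in CMT, a log2 ratio of 0.46, and FASN had -0.15. The rise was OLAH on 3 and 8 reads. In cholesterol synthesis and uptake, 1 of 21 rose and 1 fell (4.76% each, against 8.38% and 10.4% of all genes). They were STARD4 and IDI1, both under 50 reads in each library, and the median was -0.13. In fatty acid oxidation, 1 of 23 rose (4.35%, against 8.38% of all genes) and 0 fell. It was PPARA, the nuclear receptor of the pathway, with 37.1 UQRPKM in IM against 79.4 in CM and 58.7 in CMT and 1.10 (95% counting interval 0.70 to 1.51).

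Neutrophil genes had the highest median log2 ratio among the immune lists, 1.15. Of 22 entries, 12 were compared, 7 rose and 1 fell, and with entries under 1 UQRPKM or at their bound the median was 0.66 over 14. With 200 reads or more, 6 of 7 rose and 0 fell, against 2.64% and 4.34% of all such genes. S100A8, a subunit of calprotectin, had 90.4 UQRPKM in IM against 1272 in CM and 193 in CMT. Its partner S100A9 had 85.6 UQRPKM in IM against 1157 in CM and 229 in CMT. S100A12, a related calcium-binding protein, had 323 UQRPKM in IM against 2449 in CM and 537 in CMT. CM was the highest library for all, and CMT lay above IM. The log2 ratios were 3.81 (95% counting interval 3.41 to 4.25), 3.76 (95% counting interval 3.43 to 4.10) and 2.92 (95% counting interval 2.69 to 3.16). The study names these genes from the same libraries, so they are not independent evidence of a direction.

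Further members also rose. LCN2, which binds bacterial siderophores and is also made by adipocytes, had 309 UQRPKM in IM against 770.4 in CM and 467 in CMT and 1.32 (95% counting interval 1.18 to 1.45). HK3, a hexokinase of white blood cells, gave 1.31, and NFE2, a transcription factor of blood cell precursors, had 9, 69 and 11 reads. MMP9, a gelatinase stored in neutrophils, fell by 1.54 on the log2 scale, with 58, 19 and 42 reads. Of other granule genes, MPO had 1, 0 and 0 reads, ELANE had 0, 1 and 0 reads and LTF had 13, 2 and 9 reads. BPI, a granule protein that kills bacteria, had 46, 51 and 35 reads, a log2 ratio of 0.22. CXCR2 gave -0.12, and CSF3R was listed at 0 in every library. The list summed to 1087 UQRPKM in IM against 6054 in CM and 1708 in CMT. MPO and ELANE had at most 1 read in a library, and the cell source of the reads of this list was not tested. The red cell genes HBB and ALAS2 gave -0.11 and -0.31. The liver lists were high in the same library, and their part in these values was not tested.

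Macrophage genes were mixed. Of 34 entries, 32 were compared, 7 rose and 2 fell, with a median log2 ratio of 0.14. With 200 reads or more, 4 of 23 rose (17.4%, against 2.64% of all such genes) and 0 fell. EMR1, the pig F4/80 gene, had 45.6 UQRPKM in IM against 93.6 in CM and 30.6 in CMT and 1.04 (95% counting interval 0.79 to 1.29). LYZ, lysozyme, had 41.4 UQRPKM in IM against 97.5 in CM and 26.6 in CMT with 1.24 (95% counting interval 0.84 to 1.64). CD68 (LOC100520753), a lysosomal glycoprotein, had 17.2 UQRPKM in IM against 42.9 in CM and 22.2 in CMT with 1.31 (95% counting interval 0.75 to 1.90). CMT was below CM and nearer to IM for these genes. EMR1 and CD68 are named by the study from the same libraries. The more abundant markers did not pass 1.5-fold: C1QA gave -0.43, C1QC -0.30, CSF1R -0.22, CD14 0.018 and MRC1 -0.056. CCR2, the receptor by which monocytes enter tissue, fell with 89, 42 and 32 reads and -1.01 (95% counting interval -1.58 to -0.47). CD163 was listed at 0 throughout.

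Genes of the oxidase that phagocytes use to make superoxide had log2 ratios above 0. Of 5 compared genes, all with 200 reads or more, 2 rose (40%, against 2.64% of all such genes) and 0 fell, with a median of 0.48. The 2 that rose, NCF1 and GP91-PHOX, are named by the study from the same libraries, so the count is no independent evidence. NCF1, a cytosolic subunit, had 60.3 UQRPKM in IM against 136 in CM and 63.9 in CMT, a log2 ratio of 1.17 (95% counting interval 0.84 to 1.52), and GP91-PHOX, the catalytic subunit, had 95.9 UQRPKM in IM against 147 in CM and 82.5 in CMT with 0.62 (95% counting interval 0.44 to 0.79). NCF4 and RAC2 gave 0.13 and 0.075.

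Lymphocyte genes did not rise as a group. Among T and NK cell genes 1 of 30 compared rose (3.33%, against 8.38% of all genes) and 5 fell (16.7%, against 10.4%), with a median of -0.14. With 200 reads or more, 1 of 12 rose and 0 fell. CD244, a receptor of NK cells, rose with 86, 191 and 85 reads and 1.22 (95% counting interval 0.85 to 1.61). GZMH, a granzyme of killer lymphocytes, had 62.2 UQRPKM in IM against 6.39 in CM and 4.83 in CMT and -3.28 (95% counting interval -4.46 to -2.30), so that both castrated groups lay far below IM. LCK, the kinase of the T cell receptor, had 105, 46 and 86 reads with -1.12 (95% counting interval -1.65 to -0.61). CD3E, CD3D, CD8A and NKG7 were within 1.5-fold at -0.55, 0.0053, 0.069 and -0.054. Of 11 compared B and plasma cell genes, 0 rose and 3 fell (27.3%, against 10.4% of all genes). The falls were MZB1, CD79B and BLK, each with at most 51 reads per library. MHC class II genes were near no change: SLA-DRA, the most read, had 8852 UQRPKM in IM against 9761 in CM and 7912 in CMT, and the median was 0.03. The 1 call among 9, SLA-DOB, rested on 2 and 5 reads.

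Of 30 compared cytokines and chemokines, 5 rose (16.7%, against 8.38% of all genes) and 10 fell (33.3%, against 10.4%), and the median log2 ratio was -0.34. CXCL12, a chemokine of stromal cells and the most read of the list, had 1365 UQRPKM in IM against 860.0 in CM and 964 in CMT and -0.67 (95% counting interval -0.72 to -0.61). CCL4 and CCL3L1, macrophage inflammatory proteins, gave -0.92 (95% counting interval -1.23 to -0.62) and -1.34 (95% counting interval -1.92 to -0.78), TNF gave -0.95 (95% counting interval -1.38 to -0.53), and IL1B had 26, 6 and 21 reads. CMT values of CXCL12, CCL4, CCL3L1 and TNF were also below IM. CCL23, a chemokine for monocytes, rose, with 239.5 UQRPKM in IM against 796 in CM and 225 in CMT and 1.73 (95% counting interval 1.54 to 1.93). CXCL14 and IL18 rose by less, at 0.59 and 0.82. CCL2, the main monocyte chemokine, was within 1.5-fold at 0.19, as were CXCL9 and CXCL10, chemokines for T cells, at 0.55 and 0.57. With total reads as the scale CXCL9 and CXCL10 passed it, so that 7 rose and 10 fell. CCL16 had 2, 228 and 6 reads, in the order of the liver genes.

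Most interferon-stimulated genes had a log2 ratio below 0. Of 29 compared, 24 did so (82.8%, against 56.8% of all genes), and the median was -0.28. OAS1, a sensor of double-stranded RNA, had 2836 UQRPKM in IM against 1434 in CM and 1502 in CMT, a log2 ratio of -0.98 (95% counting interval -1.07 to -0.90). MX1, MX2, OAS2 and IFIT1 gave -0.34, -0.58, -0.47 and -0.24. CMT was below IM for all of these. By the 1.5-fold rule 0 rose and 4 fell (13.8%, against 10.4% of all genes), of which IFITM3 missed it with total reads as the scale. With 200 reads or more, 2 of 27 fell (7.41%, against 4.34% of all such genes), and with total reads 1 of 27 (3.7%, against 3.2%).

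**Figure D4:**
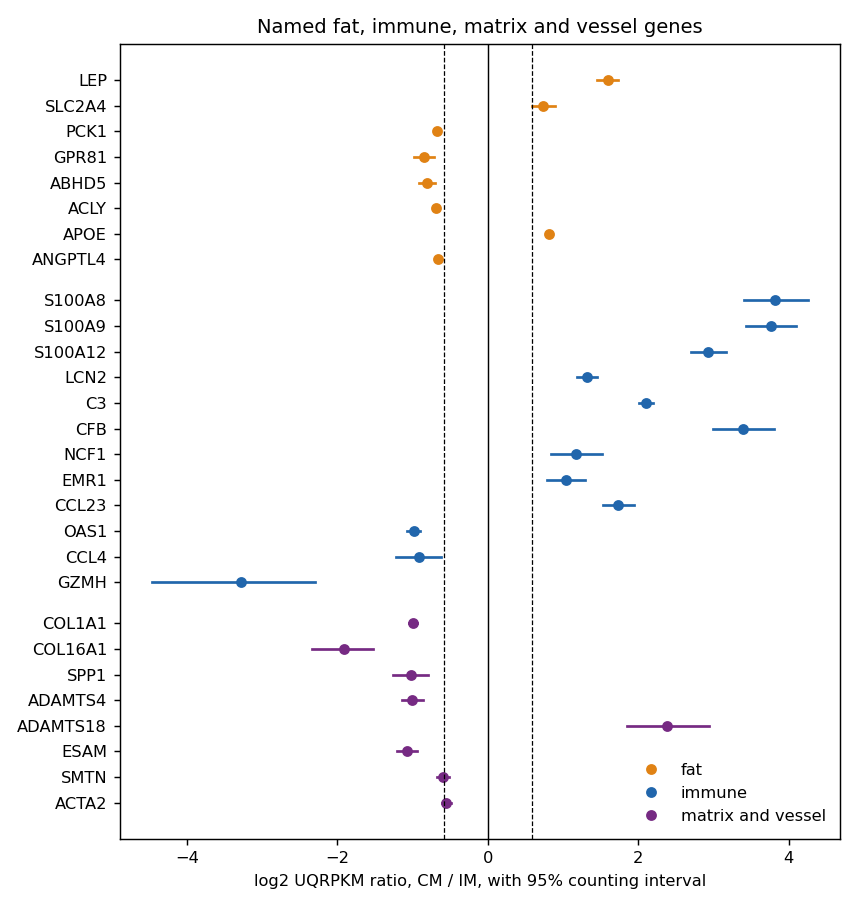
Log2 ratio of CM to IM in UQRPKM (horizontal axis) for 28 named genes of fat, immunity, and matrix or vessel, with the exact 95% counting interval as a line where it is wider than the point. The solid line marks no change and dashed lines 1.5-fold. S100A8, S100A9 and CFB lie farthest to the right and GZMH farthest to the left.

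Among collagens, 27 of 31 entries were compared, and the median log2 ratio was -0.17. Of the 27, 2 rose (7.41%) and 3 fell (11.1%), against 8.38% and 10.4% of all genes. With 200 reads or more, 0 of 20 rose and 2 fell (10%, against 4.34% of all such genes). COL3A1, the most read, had 43498 UQRPKM in IM against 46011 in CM and 39816 in CMT, a log2 ratio of 0.081. COL1A1, a chain of the fibril of type I collagen, had 4453 UQRPKM in IM against 2235 in CM and 2580.1 in CMT and -0.99 (95% counting interval -1.04 to -0.94), and its partner COL1A2 gave -0.43. COL16A1, a collagen that sits on fibrils, had 106 UQRPKM in IM against 28.1 in CM and 55.1 in CMT with -1.92 (95% counting interval -2.33 to -1.52). COL1A1 and COL16A1 were lower in both castrated groups than in IM. The basement membrane chains COL4A1 and COL4A2 gave -0.17 and -0.35, and COL6A3 gave -0.46. The rises were COLL11A1, with 31, 87 and 409 reads, and COL18A1, with 43, 68 and 35 reads.

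Matrix glycoproteins and proteoglycans were compared in 59 cases. Of these 1 rose (1.69%) and 8 fell (13.6%, against 10.4% of all genes), 43 had a log2 ratio below 0 (72.9%, against 56.8%), and the median was -0.25. Members of 200 reads or more numbered 54, of which 0 rose and 6 fell, or 11.1% against 4.34% of all such genes. With total reads as the scale, NID1, SMOC1 and TNC missed 1.5-fold and ASPN passed it, so that 2 of 59 rose and 5 fell. Of the 54 there were then 1 rise and 4 falls, the falls being 7.41% against 3.20%. SPP1, the cell adhesion protein osteopontin, had 204 UQRPKM in IM against 100.2 in CM and 187 in CMT and -1.03 (95% counting interval -1.26 to -0.79). TNXB, a tenascin, gave -0.73 (95% counting interval -0.84 to -0.63), NID1 (LOC100511351), a linker of basement membranes, -0.64 (95% counting interval -0.83 to -0.45), and SMOC1 -0.62 (95% counting interval -0.76 to -0.48). SPARC, DCN and FN1, the most read, were within 1.5-fold at -0.23, 0.019 and -0.25. The rise with the upper quartile was CTHRC1, with 28 UQRPKM in IM against 68.7 in CM and 70.5 in CMT.

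Of 34 compared matrix enzymes and inhibitors, 1 rose (2.94%, against 8.38% of all genes) and 5 fell (14.7%, against 10.4%), with a median of -0.20. ADAMTS4, a protease that cuts proteoglycans, had 222 UQRPKM in IM against 111 in CM and 108 in CMT, a log2 ratio of -1.0 (95% counting interval -1.15 to -0.86). ADAMTS1, of the same family, had 91.8 UQRPKM in IM against 46.4 in CM and 54 in CMT with -0.98 (95% counting interval -1.29 to -0.68). CM and CMT were near each other for both genes and below IM. SULF1, which trims heparan sulfate, gave -0.76. ADAMTS18 went the other way, with 22.1 UQRPKM in IM against 114 in CM and 38.6 in CMT and 2.37 (95% counting interval 1.84 to 2.94). MMP2, TIMP2 and PCOLCE gave -0.22, -0.20 and -0.04.

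Most endothelial genes had a log2 ratio below 0. This held for 21 of 23 compared (91.3%, against 56.8% of all genes). By the 1.5-fold rule 3 fell (13%, against 10.4% of all genes) and 1 rose, and the median was -0.25. With 200 reads or more, 3 of 21 fell (14.3%, against 4.34% of all such genes) and 1 rose. ESAM, an adhesion molecule of endothelial junctions, had 529.9 UQRPKM in IM against 250.4 in CM and 291 in CMT and -1.08 (95% counting interval -1.22 to -0.95). RASIP1 and MMRN2, also endothelial, gave -0.77 and -0.65, and VWF, KDR and PECAM1 gave -0.32, -0.39 and -0.10. SELP, P-selectin of platelets and activated endothelium, rose, with 113, 178 and 179 reads. The list took 0.548% of mRNA reads in IM against 0.469% in CM and 0.483% in CMT.

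Smooth muscle genes had the lowest median of the 32 lists, -0.55. Of 11 compared, 0 rose and 5 fell (45.5%, against 10.4% of all genes), and with 200 reads or more 4 of 9 fell (44.4%, against 4.34%). SMTN, smoothelin of contractile cells, had 773 UQRPKM in IM against 511 in CM and 431 in CMT with -0.60 (95% counting interval -0.67 to -0.52). CNN1, calponin, had 153 UQRPKM in IM against 101 in CM and 142 in CMT. ACTA2, smooth muscle actin, just missed 1.5-fold, with 2643 UQRPKM in IM against 1799.8 in CM and 1654 in CMT and -0.55 (95% counting interval -0.62 to -0.49). Both entries of NOTCH3, a receptor of vessel wall cells, pointed the same way, at -0.48 and -0.59. RGS5, a pericyte marker, had 0.33. Scaled by total reads the smooth muscle median was -0.50, but SMTN, CNN1 and NOTCH3 (LOC102158881) missed 1.5-fold, leaving 2 falls of 11 (18.2%, against 9.08% of all genes) and 1 of 9 with 200 reads or more.

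Fibroblast and progenitor genes split. Of 29 compared, 3 rose (10.3%, against 8.38% of all genes) and 5 fell (17.2%, against 10.4%), with a median of -0.21. With 200 reads or more, 3 of 25 rose (12%, against 2.64% of all such genes) and 1 fell (4%, against 4.34%). With total reads as the scale, 0 of the 25 fell. SFRP1 and SFRP5, secreted antagonists of Wnt signals, both rose. SFRP1 had 953 UQRPKM in IM against 1584 in CM and 1219 in CMT, a log2 ratio of 0.73 (95% counting interval 0.69 to 0.78), and SFRP5 had 1682 UQRPKM in IM against 2628 in CM and 938 in CMT with 0.64 (95% counting interval 0.58 to 0.71). CM was the highest library for both. TWIST2, a transcription factor of mesenchymal cells, also rose, with 0.92. CD34, SCARA5 and GAS6 were within 1.5-fold at -0.46, -0.51 and -0.48. Both entries of PDGFRA, the receptor that marks fat progenitors, were near 0, at 0.086 and 0.17. The falls were OSR1, MEOX2, DPP4, PRRX1 and WISP2 (LOC100522769), each with under 150 reads per library in IM and CM.

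Of 13 compared mesothelial genes, markers of the lining of the body cavity, 7 rose (53.8%, against 8.38% of all genes) and 1 fell, and the median was 0.64. It was 0.43 with at least 50 reads and 0.19 over 19 entries with a pseudocount of 1 and no minimum level. KRT14 and KRT5, keratins that are also on the list, had 123, 0 and 3 reads and 24, 0 and 1 reads and were not compared. UPK3B, a uroplakin also found on mesothelium, had 4.93 UQRPKM in IM against 27.4 in CM and 46.4 in CMT. UPK1B, of the same membrane plaques, had 2.58 UQRPKM in IM against 29.4 in CM and 54.2 in CMT, and MSLN, mesothelin, had 6.47 UQRPKM in IM against 15.4 in CM and 59.5 in CMT. CMT was higher still than CM in UPK3B, UPK1B, MSLN, PRG4 and KRT19 (LOC100515339). WT1, a transcription factor of these cells, gave 0.17, and ALDH1A2, which makes retinoic acid, fell by 0.87 on the log2 scale. Genes that cavity lining and epithelia share, KRT8 and KRT18, gave 1.0 and -0.10.

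Markers of other cells were looked at as well. Skeletal muscle genes were low in both libraries, with summed UQRPKM of 499 in IM and 345 in CM. Of 17 compared, 1 rose (5.88%, against 8.38% of all genes) and 4 fell (23.5%, against 10.4%). TMOD4, a tropomodulin, fell and was the most read, with 422, 169 and 309 reads. The other calls, CASQ1, PGAM2, MYH1 and TNNC1, rested on at most 15 reads per library in IM and CM. Keratins of the skin were seen in IM. A list of 20 epidermal genes, written after their values were seen, summed to 565 reads for IM, 81 for CM and 78 for CMT. KRT14 had 123, 0 and 3 reads, KRT1 111, 2 and 1 reads, KRT5 24, 0 and 1 reads and SBSN 28, 1 and 6 reads, while LOR, FLG and IVL were listed at 0. With CM at the floor of 3 reads, KRT14 was at least 39.1-fold lower there. PRG3, an eosinophil granule protein, had 64, 0 and 0 reads, and EPX of the same granules 14, 0 and 4 reads. The part of skin or eosinophil RNA in other values was not tested.

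Of 26 compared steroid receptors and enzymes, 3 rose and 0 fell, against 8.38% and 10.4% of all genes. The median log2 ratio was -0.042. With 200 reads or more, 1 of 17 rose (5.88%, against 2.64% of all such genes) and 0 fell. ESR1, the estrogen receptor, had 25, 24 and 27 reads, and NR3C1, the glucocorticoid receptor, gave -0.029. HSD3B1, which makes active steroids from precursors, rose, with 336 UQRPKM in IM against 592 in CM and 369 in CMT and 0.82 (95% counting interval 0.69 to 0.94). HSD17B6 and HSD11B2 rose on fewer reads, with 74, 115 and 113 reads and 6, 18 and 14 reads. NR3C2, the mineralocorticoid receptor, was split over a pair of entries at -0.53 and 0.47, so its direction was uncertain. CYP19A1, ESR2 and HSD11B1 were listed at 0.

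GPX3, the secreted glutathione peroxidase, was the most read of the genes that fell. It had 26408 UQRPKM in IM against 11852 in CM and 17379.9 in CMT, with a log2 ratio of -1.16 (95% counting interval -1.18 to -1.13) on 61659, 26373 and 39762 reads. IM was the highest library and CMT lay between the others. Of the other antioxidant genes, SOD3 (LOC780439), the extracellular superoxide dismutase, rose, with 584 UQRPKM in IM against 977 in CM and 648 in CMT and 0.74 (95% counting interval 0.60 to 0.89), and MGST2 rose with 0.72. CAT, GPX1, GPX4 and SOD1 gave 0.056, 0.23, 0.29 and -0.16. In all, 2 of 34 rose (5.88%, against 8.38% of all genes) and 2 fell (5.88%, against 10.4%), with a median of 0.03. With 200 reads or more, 2 of 33 rose (6.06%, against 2.64% of all such genes) and 1 fell (3.03%, against 4.34%).

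Immediate early genes, which answer to stress and to handling of tissue, had a log2 ratio below 0 in 22 of 28 cases (78.6%, against 56.8% of all genes). Of these 28, 1 rose (3.57%) and 5 fell (17.9%, against 10.4%), with a median of -0.26. C-JUN had 814 UQRPKM in IM against 515 in CM and 363 in CMT and -0.66 (95% counting interval -0.78 to -0.54), ATF3 (LOC100738612) gave -1.18, MAFF -0.72 and ZFP36, which destabilises mRNA, -1.40. FOS gave 0.16 and EGR1 -0.16. CMT was lower still than CM in C-JUN, FOS, EGR1 and ZFP36.

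Genes of general cell function gave small medians that lay above the -0.062 of all genes. Of 66 compared genes of cytosolic ribosomal proteins, all with 200 reads or more, the median log2 ratio was 0.10. Of the 66, 2 rose (3.03%, against 2.64% of all such genes) and 3 fell (4.55%, against 4.34%). A log2 ratio below 0 was seen in 30.3% of the 66, against 56.8% of all genes. RPL31 and RPL23A (LOC100514795) rose and RPS16, RPL15 and RPL18 (LOC100738912) fell. Ribosomal protein genes have many near-identical copies, so these calls are uncertain. Of 70 compared nuclear genes of the respiratory chain, 6 rose (8.57%, against 8.38% of all genes) and 0 fell, with a median of 0.14. Only 25.7% of the 70 had a log2 ratio below 0. With 200 reads or more, 4 of 64 rose (6.25%, against 2.64% of all such genes). ATP5G2, which encodes the c subunit of ATP synthase, had 381 UQRPKM in IM against 1627 in CM and 409 in CMT and 2.09 (95% counting interval 1.95 to 2.24). CM stood apart and CMT was near IM. The c subunit also has near-identical copies. Among 20 compared proliferation genes 2 rose (10%, against 8.38% of all genes) and 3 fell (15%, against 10.4%). Their median was 0.059, and MKI67 gave -0.14. With 200 reads or more, 0 of 7 rose and 0 fell. Of 5 compared erythroid genes 1 rose (20%, against 8.38% of all genes) and 0 fell. The rise was HBQ1, on 7 and 17 reads in IM and CM.

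**Figure D5:**
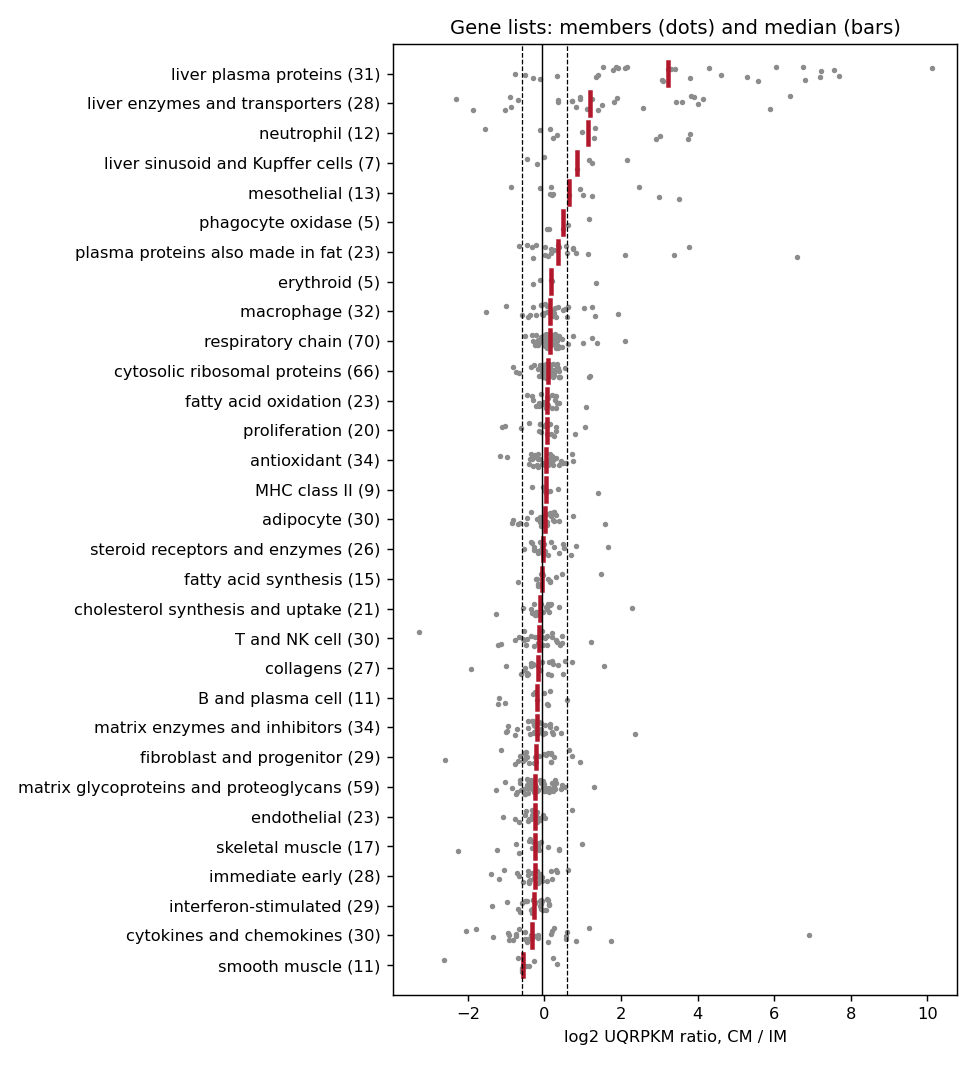
Log2 ratio of CM to IM in UQRPKM (horizontal axis) of the compared members of 31 gene lists (vertical axis, number of members in brackets), 1 grey dot per gene, with red bars at the list median. The solid line is the median of all compared genes, -0.062, and dashed lines are 1.5-fold. The liver plasma proteins lie farthest right with a median of 3.24 and smooth muscle farthest left with -0.55.

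The largest rises outside the liver lists, among genes with at least 50 UQRPKM in 1 library and 50 reads over both, were partly genes described above. In order they were CCL16, HP, LOC100625231, SERPINB2, S100A8, S100A9, CFB, ICA, S100A12 and LOC100737894. SERPINB2, plasminogen activator inhibitor 2, which monocytes and macrophages make, had 4.36 UQRPKM in IM against 176 in CM and 44.1 in CMT and 5.33 (95% counting interval 4.51 to 6.30). CM was highest and CMT lay above IM. ICA, an inhibitor of carbonic anhydrase related to transferrin, had 21, 193 and 12 reads, and reads that it could share with TF make it uncertain. LOC100625231 had 2.65 UQRPKM in IM against 161 in CM and 21 in CMT, and it has no symbol in the gene table.

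The largest falls were less tied to a known cell type. In order they were LOC100737949, LOC100626091, DUS3L, LOC100737997, GZMH, LOC100519253, LOC100738957, ASIC1, LOC102164038 and LSMD1. DUS3L, which modifies uridine in tRNA, had 52.3 UQRPKM in IM against 3.59 in CM and 13.7 in CMT, a log2 ratio of -3.86 (95% counting interval -4.89 to -2.99). ASIC1, an acid-sensing ion channel, had 109 UQRPKM in IM against 15.2 in CM and 31.7 in CMT with -2.84 (95% counting interval -3.19 to -2.50). For both genes CMT lay between CM and IM. LOC100737997, the most abundant of them, had 516 UQRPKM in IM against 40.2 in CM and 222 in CMT with -3.68 (95% counting interval -4.27 to -3.15). LSMD1 had 110.1 UQRPKM in IM against 19.1 in CM and 112 in CMT, with CMT at the level of IM. The LOC entries have no symbol in the gene table.

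Some genes were seen in 1 of the libraries only. At 20 reads or more in CM and 0 in IM there were 55 mRNA genes, of which 25 were in the liver lists and 46 were among the 10-fold genes. At 20 reads or more in IM and 0 in CM there were 8, with none in the liver lists. They were LOC100522523 with 351, 0 and 190 reads, KRT14, LOC100625180, PRG3, LOC102160988, KRT5, LOC100738066 and CRABP1, a carrier of retinoic acid, with 20, 0 and 6 reads. A value of 0 at this depth allows up to 3 reads.

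Of the remaining genes that the study names, APOA5, which promotes triglyceride clearance and is a liver gene, rose with 13, 55 and 18 reads and 2.15 (95% counting interval 1.26 to 3.15). DIO3, which inactivates thyroid hormone, had 12.1 UQRPKM in IM against 3.34 in CM and 18.5 in CMT and -1.86 (95% counting interval -3.03 to -0.82). GSTA4, a glutathione transferase for lipid peroxidation products, and INHBA, an activin subunit, were within 1.5-fold at -0.41 and -0.24. GNRH1 had 0, 1 and 0 reads, and INHA and GNRHR were listed at 0. Of 23 compared genes named by the study, 11 rose and 5 fell, but the study chose them on these libraries, so the count is no independent evidence.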

How the data were processed

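Retroperitoneal fat RNA of pigs was pooled by group and sequenced as 1 single-end Ion Proton library each for IM, CM and CMT. After quality filtering, the authors aligned reads with MapSplice to the pig genome Sscrofa 10.2 and deposited RPKM values scaled by the upper quartile (UQRPKM) per gene. The counting tool and annotation are not given in the sources used here. The authors' own fold changes were not used.

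UQRPKM values of a gene step by what 1 read is worth, so whole read numbers were recovered from the values of the 3 libraries for all 20838 genes above 0 (100.0%; largest relative error 7.65e-09). A factor common to all reads of a gene cannot be seen this way, so read numbers may be too low and intervals then too wide. Intervals were exact 95% (Clopper-Pearson) limits of the share of CM reads and cover counting error only. Ratios used UQRPKM with no pseudocount. With 1 pooled library per group no test of the condition was made, and precision was limited by read depth. Intervals were tested on simulated data.

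The members and the 32 gene lists were chosen with earlier results of these data known, and 3 more lists were added after values were seen. Named outside the liver lists were the 10 largest rises and 10 largest falls with at least 50 UQRPKM in 1 library and 50 reads over both, beside list members. Of 8458 mRNA entries with LOC identifiers, 3840 were in the RefSeq table of Sscrofa11.1 and 1774 had a symbol there, used for names only. Alternatives were other scalings, pseudocount, read and level minimums, fold and gene types. Python 3.11.15, pandas 2.3.3, numpy 2.4.6 and scipy 1.17.1 were used. Some genes are not reported here.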

Additional observations from a re-analysis of the deposited data

Results flagged for a closer look

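The 13 mitochondrially encoded genes, which were deposited under the type ncRNA and were outside the comparison of mRNA genes, had a median log2 ratio of CM to IM of 0.64, and 8 of the 13 were 1.5-fold or more higher in CM. Skeletal muscle genes, low in IM and CM, summed to 9859 UQRPKM in the CMT library, which was not part of the ratio, against 499 in IM and 345 in CM. Both values come from single pooled libraries, and their cause was not tested.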

How the results depend on the processing

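No paired analysis was possible because each group is 1 library. For the same reason no library could be left out. At 2-fold in place of 1.5-fold, 545 genes rose in CM and 594 fell. With at least 50 reads over both libraries, 649 rose and 850 fell, and 602 rose once the 3 liver lists and the 10-fold genes were also left out, a setting chosen after seeing the data. Calls whose counting interval lay off 0 were 717 higher and 939 lower. A pseudocount of 1 without a minimum level gave 1797 higher and 2019 lower. Scaling by total reads gave 1348 higher against 1282 lower, and a median ratio set to no change gave 1358 against 1277, so the larger direction turned. The endothelial median was -0.19 under both scalings, and the ribosomal protein median was 0.15 and 0.16. Medians of fatty acid synthesis and of steroid receptors and enzymes, both close to 0, changed sign under both scalings, and the erythroid median was -0.11 with at least 50 reads. No called gene named by the text changed direction under the scalings and pseudocount tried. Of 256 genes, 64 moved beyond their counting interval with total reads and 67 with the median set to no change. Counting error leaves genes under about 50 reads open at 1.5-fold, and 1001 calls had an interval that held 0. Without replicates, differences between pigs could not be measured.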
